A study of Rattus norvegicus with 6 samples.

Results

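The 9 genes described here have been proposed as ways for aminoglycoside antibiotics to enter cells, and were measured in the vestibular sensory epithelium of rats. They encode the endocytic receptors megalin (Lrp2) and cubilin (Cubn), the plasma membrane TRP channels Trpv1, Trpv4 and Trpa1, the mucolipin channels Mcoln1 and Mcoln3, and the Piezo channels Piezo1 and Piezo2. Members were picked by gene symbol, with no measured value in the rule, but with earlier results of these data known. All 9 were found, each in 1 row, among the 32883 genes of the count table. RNA-seq libraries came from 6 Long-Evans rats. The 3 Control rats were injected with PBS, the vehicle, and the 3 STREP rats with streptomycin at 500 mg/kg as free base, given daily under the skin over 6 weeks that began at postnatal day 21. Both groups were made up of 2 males and 1 female, replicate 3 being the female, and all were killed on the last day of treatment. For each animal the 2 utricles and 6 cristae were pooled into 1 sample. The comparison asks which of the candidate routes had more or less mRNA after weeks of exposure. Because each library is 1 animal, the p-values set the difference between groups against an estimate of the spread between animals. The titles of STREP 1 and STREP 2 differ by a single letter, and what their shared code stands for is not given.

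Aminoglycosides are polycationic drugs that damage hair cells (HCs), the mechanosensory cells of the inner ear. Megalin is a very large receptor of the lipoprotein receptor family that carries many ligands, aminoglycosides among them, from the apical surface of absorptive epithelia into endosomes. In the kidney it works together with cubilin, which has no transmembrane segment and needs a partner to be internalised. In the inner ear megalin is known from non-sensory epithelia, including the ion-transporting cells called dark cells in the vestibule and the marginal cells of the cochlea. TRP channels and Piezo channels are non-selective cation channels opened by heat, chemicals, osmotic or mechanical stimuli, and mucolipins are cation channels of endosomes and lysosomes. HCs also take up aminoglycosides through the mechanotransduction channel at the tips of their stereocilia.

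The library totals ran from 29333584 to 59906048 counts, and every STREP library was smaller than every Control library. Values below are normalised counts, that is, counts divided by the DESeq2 size factor of the library. A total of 3 counts, taken as the detection floor, came to between 0.0501 and 0.102 CPM (scaled by the library total), or between 1.84 and 4.49 normalised counts, and covers counting error only. All 7 listed HC markers were detected in every animal, and Otof, the synaptic calcium sensor of HCs, lay between 28373 and 29590.1 in Control and between 22945 and 29056 in STREP. The summed level of the HC list, most of it Otof and Myo6, was 67086 to 69206 in Control and 58049 to 68768 in STREP. That of the supporting cell list, most of it Otog, was 386707 to 465950 in Control and 483247 to 805760 in STREP, with no overlap. Of its 6 genes, 0 had a log2 fold change below 0 and 0 were called. The 10 marker lists held 51 genes, of which 48 were tested. Gfi1, an HC transcription factor, was called higher (log2 fold change 1.20 ± 0.21, SE; adjusted p = 2.37e-06, DESeq2), Prx, a myelin protein of Schwann cells, was called lower (−0.68 ± 0.21, adjusted p = 0.0425), and 8 lists had no gene called. The tissue is a mixture of cells, so fewer cells of a type and less RNA per cell cannot be told apart in any value below. The libraries carry no strand information, so reads from antisense or overlapping genes cannot be separated from those of the genes named.

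The 250 bases upstream of the start were read from RefSeq (rat assembly GRCr8) for the 7 members matched by symbol, Lrp2, Cubn, Trpv1, Trpv4, Mcoln1, Mcoln3 and Piezo2. The reads were counted on the older Rnor6.0 annotation, so these positions do not apply to the count table. Printed are both endocytic receptors, since Lrp2 was called and Cubn was not, and Mcoln1, since the core letters of lysosomal gene promoters were searched for. All run 5′ to 3′ on the strand of the gene, ending at the base before its start. Capitals mark the motifs found in each window, the GC box GGGCGG in Lrp2 and CACGTG in Mcoln1. The Lrp2 window is chr3:74754536-74754785 (minus strand), that of Cubn chr17:81501695-81501944 (minus strand) and that of Mcoln1 chr12:6358008-6358257 (plus strand).
Lrp2: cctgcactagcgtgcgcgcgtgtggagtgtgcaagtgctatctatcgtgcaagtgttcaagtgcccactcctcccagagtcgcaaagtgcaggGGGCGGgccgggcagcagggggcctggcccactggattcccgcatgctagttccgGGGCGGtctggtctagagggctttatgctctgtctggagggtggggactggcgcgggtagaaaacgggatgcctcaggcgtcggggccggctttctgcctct
Cubn: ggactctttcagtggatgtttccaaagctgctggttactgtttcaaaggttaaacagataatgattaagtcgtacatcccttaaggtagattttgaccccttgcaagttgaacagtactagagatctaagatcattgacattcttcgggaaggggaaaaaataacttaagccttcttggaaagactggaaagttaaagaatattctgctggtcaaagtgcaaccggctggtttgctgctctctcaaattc
Mcoln1: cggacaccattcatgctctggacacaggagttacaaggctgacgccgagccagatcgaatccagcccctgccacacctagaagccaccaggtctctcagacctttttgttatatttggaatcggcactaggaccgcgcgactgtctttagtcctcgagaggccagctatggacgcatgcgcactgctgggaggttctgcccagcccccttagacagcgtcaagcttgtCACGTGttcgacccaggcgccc

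Motifs were searched on both strands, and the 3 motifs share no overlapping match in these windows. The Lrp2 window holds 2 GC boxes, which begin 157 and 102 bases before the start, and the Trpv4 window also holds 2, at 52 and 38 bases. Piezo2 has 1 GC box, 82 bases before the start. Of 33469 promoters of the same length, 30.5% hold a GC box and 14.8% hold at least 2. The CACGTG in Mcoln1 begins 22 bases before the start, and 5.59% of promoters hold one. Mcoln3 has 1 TATAAA, 231 bases upstream, a motif in 12.9% of promoters. No match to the 3 motifs was found for Cubn and Trpv1. The GC content of the Lrp2 window is 64.4%, against a median of 51.2% over all promoters.

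Only 1 of the 9 genes, Lrp2, passed the test, and it fell. Calls needed an adjusted p under 0.05 together with a change of over 1.5-fold, up or down, and all members were tested. Over the 16250 genes tested, 3.24% were called, 1.37% lower and 1.87% higher in STREP, and 12.2% had an unadjusted p under 0.05, the share to read beside the counts of such genes below. The log2 fold change was below 0 for 4 members and the median was 0.08, beside a median of 0.0069 over all genes tested. The groups did not overlap for Lrp2, Mcoln1 and Piezo2, 3 of 9 genes, as for 17.8% of all genes tested. With 9 genes, these shares are given as counts and nothing more is read from them.

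**Figure D1:**
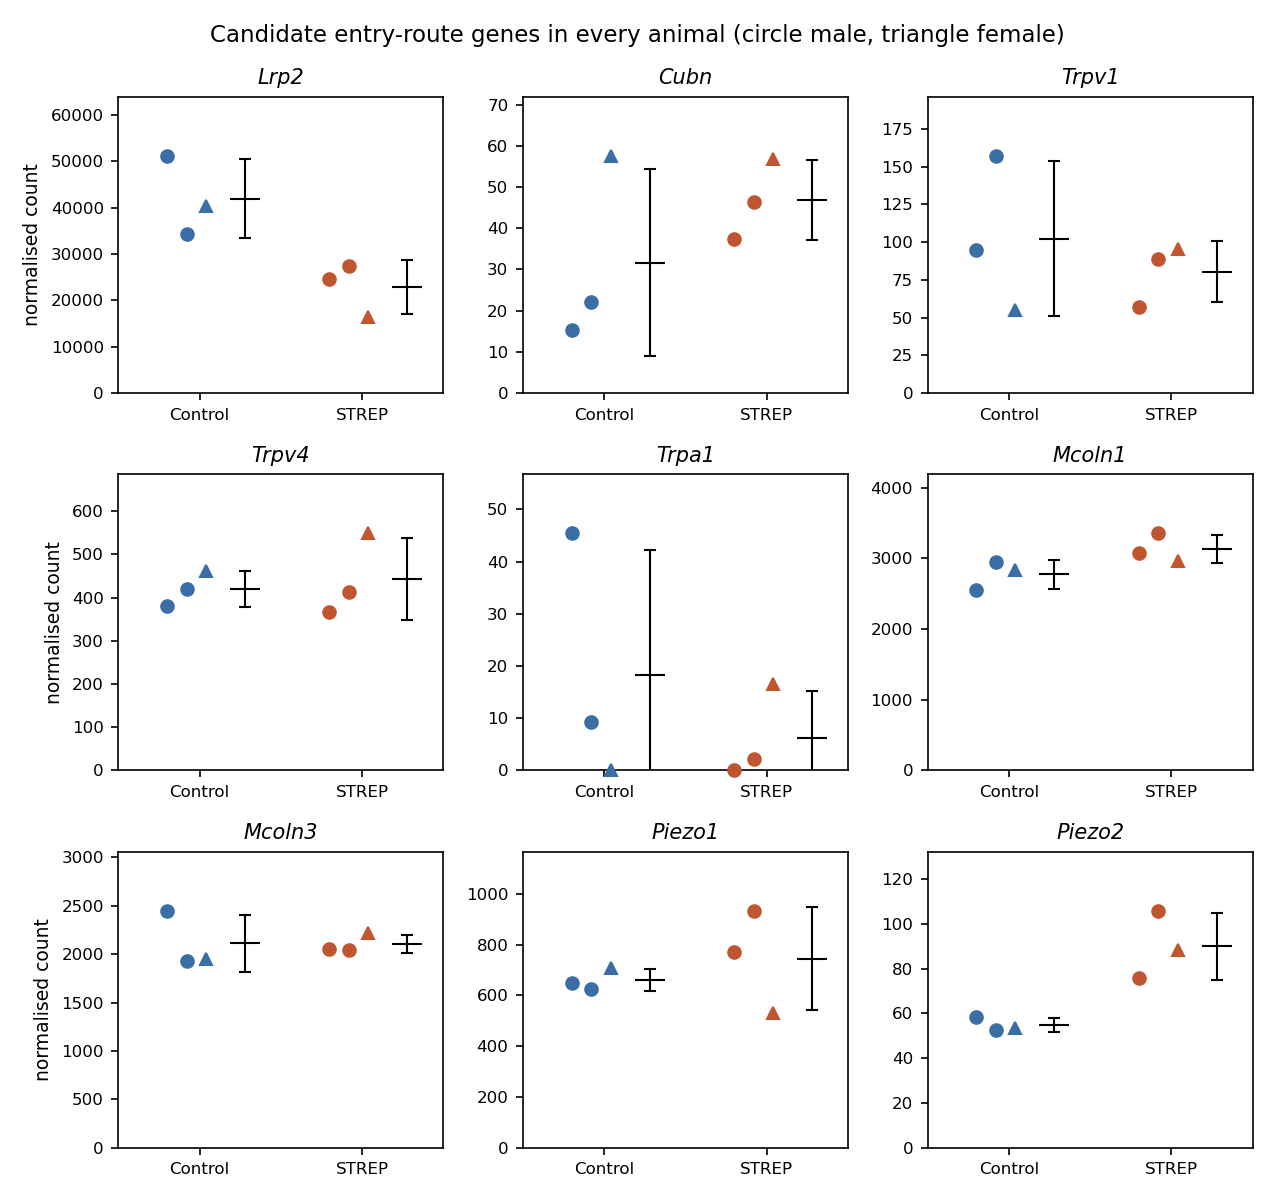
Normalised count (linear y axes) of each of the 9 genes in every animal, 3 Control and 3 STREP; points are animals and the bar beside them is the mean ± SD, cut at 0 for Trpa1. For Lrp2 the 3 STREP animals lie between 16287 and 27483, below the lowest Control animal at 34237, and for Piezo2 they lie above all 3 Control animals.

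Lrp2 (ENSRNOG00000056184), the megalin gene, was measured at 51167, 34237 and 40319.8 normalised counts in the 3 Control animals and at 24551, 27483 and 16287 in the 3 STREP animals. Control 1 was the highest of all and STREP 3, the female, the lowest, and the highest STREP value was below the lowest Control value. The means were 41908 ± 8576 (SD, n = 3) in Control and 22774 ± 5806 (SD, n = 3) in STREP. Lrp2 fell to 54.3% of its Control level, a log2 fold change of −0.88 ± 0.21 (SE), with a 95% interval of −1.29 to −0.47 and an adjusted p of 0.00167 (DESeq2 Wald test). Raw counts were at least 10888 in each library, so counting error is small beside the spread between animals. The call did not hold in 4 of 15 refits with the same thresholds, nor with the fold threshold placed inside the test. The edgeR quasi-likelihood test gave the same log2 fold change of −0.88 with an adjusted p of 0.13, scaling by library totals gave −0.86 with an adjusted p of 0.0993, and without Control 1 the values were −0.72 and 0.0598 (DESeq2). The value was below 0 in all 15.

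Cubn (ENSRNOG00000029047) was a gene of few reads here, with 25, 26 and 67 raw counts in Control and 28, 43 and 38 in STREP. These came to 15.3, 22.1 and 57.6 normalised counts in Control and 37.3, 46.4 and 56.8 in STREP. The female Control animal was the highest of the 6, so the groups overlapped. The log2 fold change of 0.57 ± 0.68 (SE) had a 95% interval of −0.76 to 1.89 and an adjusted p of 0.869 (DESeq2). A 1.5-fold change in either direction lay inside that interval and was not detectable at this depth and spread.

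Because both receptors were read in the same library, their ratio within an animal needs no scaling. The log2 ratio of Lrp2 to Cubn was 11.6, 10.5 and 9.43 in Control and 9.33, 9.18 and 8.14 in STREP. All 3 STREP ratios were below all 3 Control ratios, by 9.33 against 9.43 at the closest. The mean ratio was 10.5 ± 1.09 (SD, n = 3) in Control and 8.88 ± 0.648 (SD, n = 3) in STREP, a difference of −1.64 (exact two-sided permutation p = 0.1, adjusted p = 0.2 over 4 ratios). With 3 animals against 3 the smallest p this test can give is 0.1. The ratio is between counts of genes of different length and is used only to compare animals.

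Partners of megalin and cubilin endocytosis were measured from a list of 11 genes, of which 10 were in the table and 9 were tested. None was called by DESeq2 or edgeR, 2 had an unadjusted DESeq2 p under 0.05, and the median log2 fold change was 0.0040. Ap2m1, a subunit of the clathrin adaptor AP2, went from 20439 ± 1607 (SD, n = 3) to 17250.5 ± 3288 (SD, n = 3), a log2 fold change of −0.24. Lrpap1, the chaperone that keeps receptors of the megalin family free of ligand during their folding, was at 11172 ± 362 in Control and 11204 ± 1376 in STREP, a log2 fold change of 0.0040. Cltc, the clathrin heavy chain, changed by −0.07 on the log2 scale. The 2 genes with an unadjusted p under 0.05, named after their values were seen, were Clcn5, an endosomal chloride-proton exchanger, at 0.87 ± 0.36 (adjusted p = 0.218), and Ocrl, an inositol phosphatase of endosomes, at 0.44 ± 0.22 (adjusted p = 0.39). Amn, which encodes amnionless, the membrane anchor of cubilin, had 2 raw counts in Control 2 and 0 in the other 5 libraries, a count at or under the floor in every animal.

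The lipoprotein receptor family of megalin was listed by 11 other members, of which 10 were in the table and tested. None was called by DESeq2 or edgeR, 1 had an unadjusted DESeq2 p under 0.05, and the median log2 fold change was 0.08. Lrp1, a broad endocytic and signalling receptor, was at 13508 ± 2438 in Control and 14144 ± 1345 in STREP. Lrp10 was at 9177 ± 1648 and 9775 ± 706, and Vldlr at 2049 ± 369.6 and 2024 ± 300.5 (SD, n = 3 each). Their log2 fold changes were 0.07, 0.09 and −0.02.

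Values of 4 of 5 dark cell genes were, like that of Lrp2, lower in STREP. None of these markers was called by DESeq2, 3 had an unadjusted p under 0.05 and none was at 0 in any animal. Their summed level, most of it Atp1b2 and Slc12a2, was 46007 to 51489 in Control and 31988 to 38877 in STREP, with no overlap. Slc12a2, the sodium-potassium-chloride cotransporter, lay at 20720.3 to 23399.5 in Control and 12833 to 16045 in STREP, with a log2 fold change of −0.55 ± 0.14 and an adjusted p of 0.0035, past the p threshold and short of the fold threshold. Kcne1, the accessory subunit of the potassium channel Kcnq1, was at 366 to 638 in Control and 144 to 444 in STREP, a log2 fold change of −0.79 ± 0.37 (adjusted p = 0.333). Kcnq1 itself had −0.41 (adjusted p = 0.548) and Atp1b2, a subunit of the sodium pump, −0.36 (adjusted p = 0.182). Bsnd, the barttin subunit of chloride channels, had 0.05 and lay at 952 to 1148 in Control and 951 to 1323 in STREP. STREP 3, the lowest library in Lrp2, was also the lowest in Slc12a2, Kcne1, Kcnq1 and Atp1b2. In Bsnd it was level with Control 2, at 951 against 952. STREP 3 also stood apart outside this list, as the highest library in Otog at 729507. The chi-square per gene, a measure of how far a pair of libraries differs over all genes compared, was 179 for STREP 2 and STREP 3. It was 84.1 for STREP 1 and STREP 3, 51.6 for STREP 1 and STREP 2, and 55.3 to 90.7 for the Control pairs. Control 1, the highest in Lrp2, was the highest in Kcne1, Kcnq1 and Atp1b2. Lower values were not limited to this list. Log2 fold changes were below 0 for 5 of 5 Schwann cell, 5 of 5 fibroblast, 2 of 2 erythrocyte and 3 of 4 melanocyte genes. They were below 0 for 5 of 7 HC, 3 of 5 neuron, 1 of 5 macrophage, 1 of 4 endothelial and 0 of 6 supporting cell genes. Over all 16250 genes tested, 7969 were below 0. The log2 difference of the summed level ran from −0.55 (erythrocyte) to 0.47 (supporting cell). It was −0.44 for dark cells, −0.42 for Schwann cells and 0.27 for melanocytes. The part of dark cell number or dark cell RNA in the Lrp2 result was not tested.

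**Figure D2:**
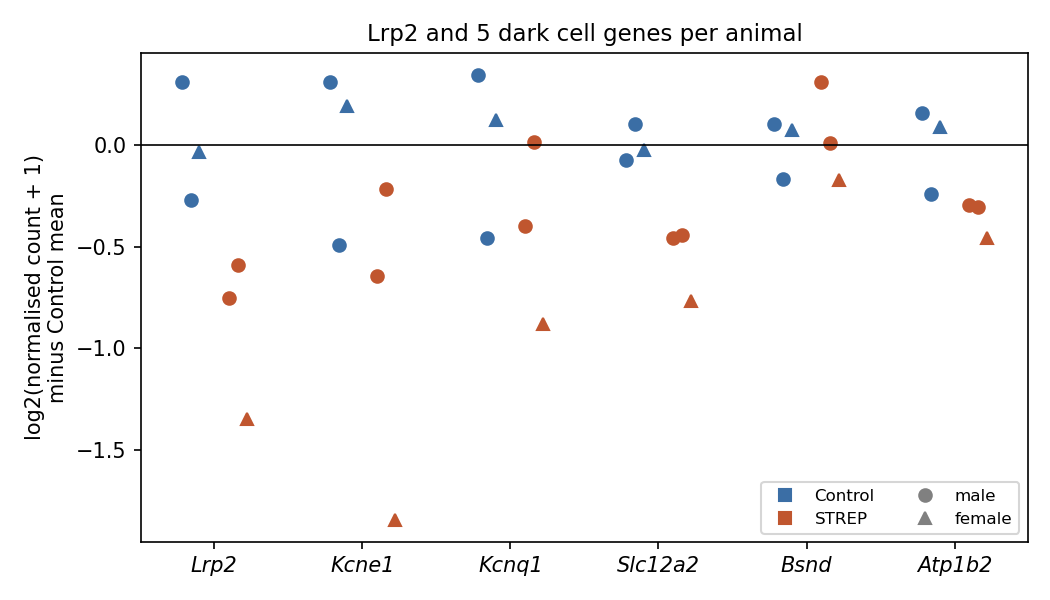
Log2(normalised count + 1) of Lrp2 and the 5 dark cell markers in each of the 6 animals, as the difference from the Control mean of the gene (y axis); each point is an animal and 0 is the Control mean. Lrp2 lies at −0.75, −0.59 and −1.34 in the 3 STREP animals and Kcne1 reaches −1.84 in STREP 3, while Bsnd scatters around 0 in both groups.

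None of the 3 plasma membrane TRP channels passed the test. Trpv4 (ENSRNOG00000001195), an osmotically and thermally gated calcium channel, had the most reads of the 3, with 379.9, 419 and 461 normalised counts in Control and 367, 414 and 549 in STREP. The STREP values lay on both sides of the Control range. Its log2 fold change was 0.08 ± 0.23 (SE), with a 95% interval for the fold of 0.768 to 1.45 and an adjusted p of 0.973 (DESeq2). A change of more than 1.5-fold in either direction lay outside that interval.

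Trpv1 (ENSRNOG00000019486), the heat and capsaicin receptor, was at 94.5, 157 and 55.0 in Control and 57.2, 88.5 and 95.7 in STREP. Control 2 was the highest and Control 3 the lowest of the 6 animals, so the Control group spanned the STREP group. The log2 fold change was −0.35 ± 0.49, with a 95% interval of −1.31 to 0.62 and an adjusted p of 0.904 (DESeq2). Trpa1 (ENSRNOG00000007354), a receptor of irritant electrophiles, had 74, 11 and 0 raw counts in Control and 0, 2 and 11 in STREP. One animal of each group was at 0, which allows at most the floor of 3 counts in those libraries, 2.58 normalised counts in Control 3 and 3.99 in STREP 1. The log2 fold change of −1.58 ± 1.73 had a 95% interval of −4.97 to 1.81 and an adjusted p of 0.845 (DESeq2), and without Control 1, which held 74 of the counts, it turned to 0.39. The log2 ratio of Trpv1 to Trpv4 differed by −0.31 between the groups, which overlapped (exact two-sided permutation p = 0.6).

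Of 23 other TRP channels, all were in the table and 18 were tested, and none was called by DESeq2 or edgeR. One had an unadjusted DESeq2 p under 0.05, and the median log2 fold change was −0.09. Trpm3, a steroid- and heat-sensitive channel, was the most counted, at 7493 ± 444 in Control and 6639.9 ± 865 in STREP (SD, n = 3 each). Trpm2, opened by ADP-ribose under oxidative stress, was the one with the low unadjusted p, at 1438 ± 338 and 1040.1 ± 114, a log2 fold change of −0.47 ± 0.21 (adjusted p = 0.298). Trpm7, a channel with a kinase domain, changed by 0.12. Trpv5, Trpc5 and Mcoln2, named after their values were seen, had 0 counts in all 6 libraries, which allows up to 3 counts in each.

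The mucolipins had at least 1483 raw counts in each animal and the narrowest intervals of the 9 genes. Mcoln1 (ENSRNOG00000000975), the calcium and iron release channel of lysosomes, was at 2546, 2943 and 2838 in Control and 3078, 3353 and 2962 in STREP. All 3 STREP animals were above all 3 Control animals, STREP 3 by 2962 against 2943. The means were 2776 ± 206 and 3131 ± 201 (SD, n = 3 each), a fold of 1.13 with a 95% interval of 0.938 to 1.36 and an adjusted p of 0.718 (DESeq2).

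Mcoln3 (ENSRNOG00000015024), a mucolipin of endosomes that HCs are known to express, was at 2449, 1933 and 1951 in Control and 2057, 2043 and 2218 in STREP. The STREP animals lay within the Control range. The means were 2111 ± 293 and 2106 ± 97.6 (SD, n = 3 each), and the fold of 0.997 had a 95% interval of 0.808 to 1.23 and an adjusted p of 0.998 (DESeq2). A 1.5-fold change in either direction lay outside the intervals of both mucolipins and of Trpv4, 3 of the 9 genes. The log2 ratio of Mcoln3 to Mcoln1 differed by −0.17 between the groups, which overlapped (exact two-sided permutation p = 0.6). This value was 0.0022 without Control 1.

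The other endolysosomal channels and membrane proteins, 9 genes all tested, had none called by DESeq2 or edgeR, 1 with an unadjusted DESeq2 p under 0.05 and a median log2 fold change of 0.02. Lamp1, an abundant glycoprotein of the lysosomal membrane, was at 30692 ± 6871 in Control and 39529.9 ± 12709 in STREP, a log2 fold change of 0.37 that did not pass the test (adjusted p = 0.573). Lamp2 changed by 0.10 and Tpcn1, a sodium and calcium channel of endosomes, by −0.11 on the log2 scale. Tmem175, a lysosomal potassium channel named after its values were seen, had the low unadjusted p, with a log2 fold change of −0.38 ± 0.15 (adjusted p = 0.166).

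**Figure D3:**
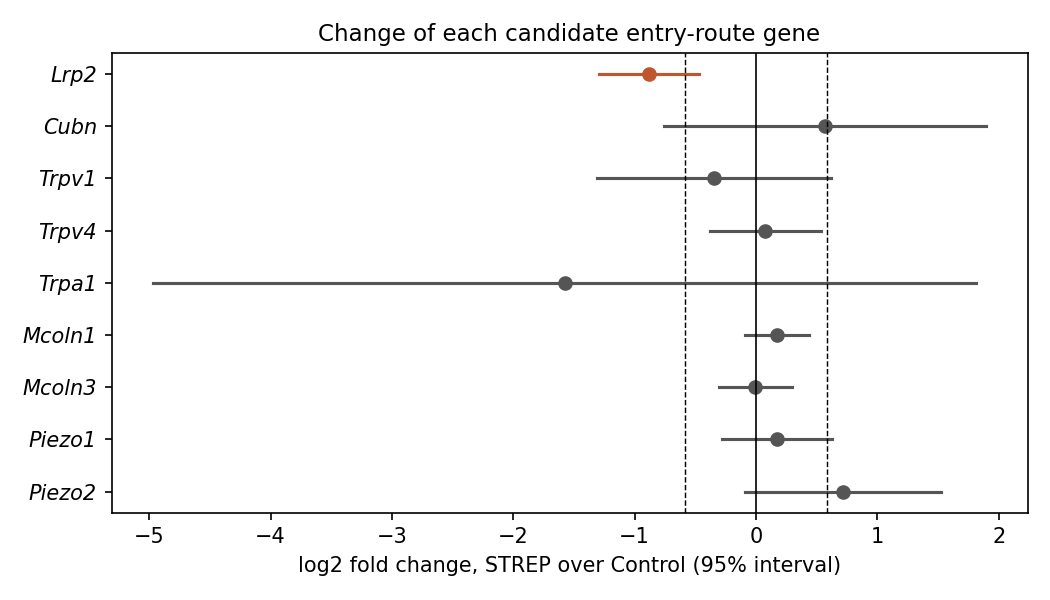
Log2 fold change (x axis, STREP over Control) of the 9 genes, 1 row each; points are the DESeq2 estimates, bars their 95% intervals and dashed lines a fold of 1.5 in either direction. Lrp2 alone has its interval below 0, at −1.29 to −0.47, and Trpa1 has the widest, at −4.97 to 1.81.

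Piezo1 (ENSRNOG00000056786) and Piezo2 (ENSRNOG00000038784) encode large channels opened by membrane tension, the latter the main touch channel of sensory neurons. Neither passed the test. Piezo1 was at 651, 626 and 708 in Control and 772, 933 and 529.5 in STREP. STREP 1 and STREP 2 were above and STREP 3 below the Control range. The log2 fold change was 0.17 ± 0.23, with a 95% interval of −0.28 to 0.63 and an adjusted p of 0.893 (DESeq2).

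Piezo2 was at 58.3, 52.7 and 53.3 in Control and 75.9, 106 and 88.3 in STREP, from 57 to 98 raw counts. All 3 STREP animals were above all 3 Control animals. The means were 54.8 ± 3.07 and 90.0 ± 15.0 (SD, n = 3 each), a log2 fold change of 0.72 ± 0.41 with a 95% interval of −0.09 to 1.53 and an adjusted p of 0.513 (DESeq2). The 95% interval of the fold ran from 0.937 to 2.88. The log2 ratio of Piezo2 to Piezo1 was −3.57 ± 0.126 in Control and −3.01 ± 0.393 in STREP, a difference of 0.56 with no overlap (p = 0.1 by the exact permutation test, which allows no smaller, and 0.2 adjusted over 4 ratios).

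Among 10 other mechanosensitive channels and Piezo modulators, 8 were tested, 1 was called higher, 4 had an unadjusted DESeq2 p under 0.05 and the median log2 fold change was 0.43. The gene called was Mdfic, whose protein is an auxiliary subunit of Piezo channels. It was at 245, 147 and 271 in Control and 643, 609 and 404 in STREP, and every STREP animal was above every Control animal. Mdfic rose by a log2 fold change of 1.32 ± 0.30 (adjusted p = 0.000722, DESeq2), and edgeR gave an adjusted p of 0.0472. The related Mdfi was not called, at −0.03 (adjusted p = 0.991, DESeq2), named after its values were seen. Of the most counted genes of the list, Tmem63b, an osmosensitive channel, was at 4191 ± 149.9 in Control and 3272 ± 348 in STREP, with no overlap and an adjusted p of 0.16. Kcnk2, the potassium channel TREK-1, was at 1334 ± 515 and 2179 ± 261, with overlap and an adjusted p of 0.0884. Tmem63a changed by 0.15 on the log2 scale. Tmem63c, a gene of few reads named after its values were seen, was at 22.9 ± 6.8 and 67.4 ± 8.06 (SD, n = 3 each) with no overlap, a log2 fold change of 1.56 ± 0.54 that did not pass the test (adjusted p = 0.0832).

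The mechanotransduction channel complex of HCs, the route measured for comparison, had 2 genes called lower among 8, 4 with an unadjusted DESeq2 p under 0.05 and a median log2 fold change of −0.43. Tmc2, a pore subunit, was at 523, 621 and 781 in Control and 150.4, 215 and 221 in STREP, and fell by 1.71 ± 0.26 on the log2 scale (adjusted p = 9.98e-09, DESeq2). Cib2, a calcium-binding subunit, fell from 2081 ± 213 to 1380.1 ± 132 (SD, n = 3 each), a log2 fold change of −0.59 ± 0.16 with an adjusted p of 0.00737, close to the fold threshold. The Cib2 call did not hold with edgeR (−0.59, adjusted p = 0.0606) or without Control 1, STREP 1 or STREP 3, where it was −0.51, −0.54 and −0.56. Lhfpl5, a tetraspan protein of the complex, was at −0.45 ± 0.13 (adjusted p = 0.0161), short of the fold threshold, and the value of Cib3 was −0.84 (adjusted p = 0.704). Tmc1, the other pore subunit, named after its values were seen, was at 1431 ± 96.2 and 1082 ± 173 with no overlap and was not called (−0.40, adjusted p = 0.256). The other members, named likewise, were not called, with log2 fold changes of 0.45 for Cdh23 and 0.03 for Pcdh15, which form the tip link, and −0.10 for Tmie. Beside these, the 7 HC markers lay on both sides of no change. Gfi1 was called higher (above) and Calb2, a calcium-binding protein, was at 0.42 (adjusted p = 0.13) with no overlap. Myo7a, a myosin of stereocilia, was at −0.49 ± 0.14 (adjusted p = 0.0162), short of the fold threshold, and Slc17a8, a glutamate transporter, was at −0.30 (adjusted p = 0.225). Otof, Pou4f3 and Myo6 were at −0.17, −0.15 and −0.13. The summed HC list overlapped between the groups, and the part of HC number in these values was not tested.

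The last list held 7 other carriers and hemichannels, of which 6 were tested and none was called by DESeq2 or edgeR, or had an unadjusted DESeq2 p under 0.05. The median log2 fold change was 0.29. Gjb6 and Gjb2, the connexins of supporting cells, were at 88503 ± 15313 and 34653 ± 6849 in Control and at 83963 ± 35624 and 43486 ± 17471 in STREP. P2rx2, an ATP-gated cation channel, was at 52494 ± 7684 and 64694 ± 22459 (SD, n = 3 each). Their log2 fold changes were −0.08, 0.33 and 0.30. Over all 7 lists, 3 of 68 genes tested were called, 4.41%, beside the 3.24% of all genes.

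**Figure D4:**
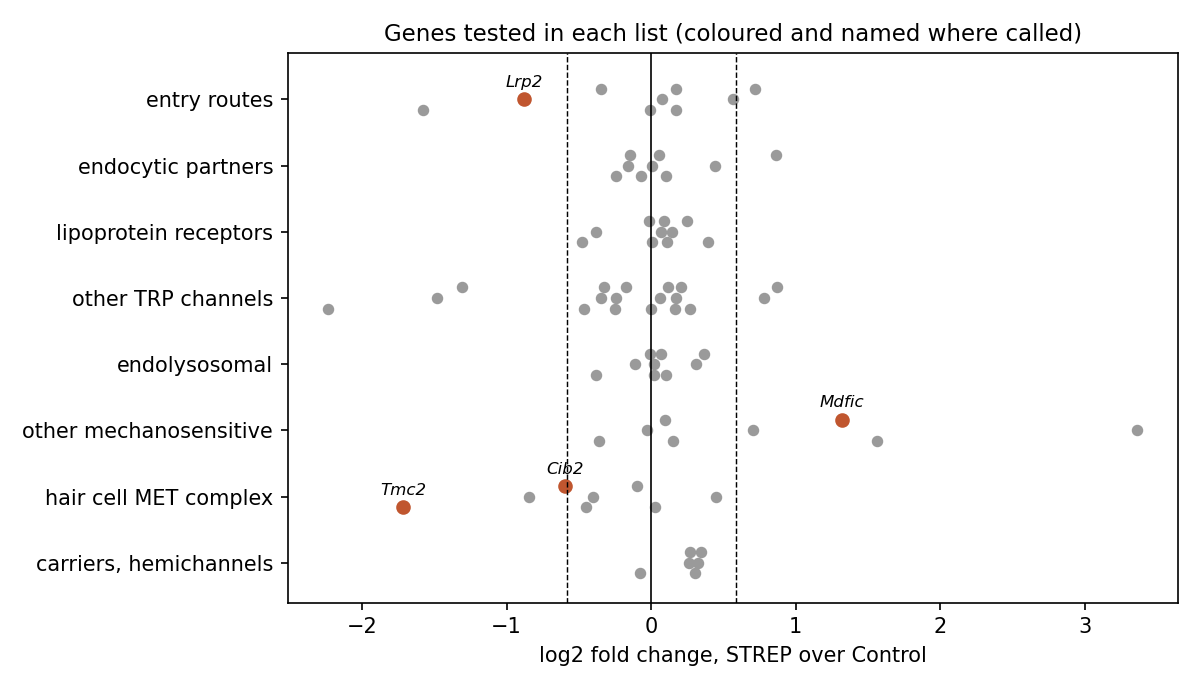
Log2 fold change (x axis, STREP over Control) of every gene tested, 1 row per list, the 9 candidate genes first; each point is a gene, dashed lines mark a fold of 1.5 in either direction, and genes called are coloured and named. Lrp2, Tmc2 and Cib2 are called lower and Mdfic, at 1.32, is called higher.

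The response was also compared between the sexes through the interaction of sex and group, which rests on 1 female in each group. Over the 13134 genes with an adjusted p, 0.259% were called. No member was called by DESeq2, of 7 with an adjusted p, and 1 of the 9, Trpa1, had an unadjusted p under 0.05. Lrp2 was lower in STREP in both sexes, by −1.31 in the females and −0.71 in the males on the log2(normalised count + 1) scale. The female minus male difference in its log2 fold change was −0.59 ± 0.33 (adjusted p = 0.964, DESeq2). Piezo1 had a difference of −0.84 ± 0.46 (adjusted p = 0.953) and Trpv1 one of 1.58 ± 1.13 (adjusted p = 0.999).

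Likeness of pattern was described for the 5 members with a mean of at least 100 normalised counts, by Pearson's r of log2(normalised count + 1) over the 6 animals with each of 12130 genes. The 6 points share libraries and groups, and the values are descriptions. The most alike to Lrp2 were Dnm1, the endocytic GTPase dynamin-1 (r = 0.992), and Lrrc49 (r = 0.990). Dnm1 was at 148, 115 and 126 in Control and 78.6, 88.5 and 61.3 in STREP and was not called (adjusted p = 0.36, DESeq2). Trpv4 ran with the ribosomal protein genes Rpl10a (0.993) and Rpl29 (0.989), Mcoln1 with Astn2 (0.988) and Psmd9 (0.983), Mcoln3 with Edc4 (0.991) and Lmo7 (0.975), and Piezo1 with Mvb12b, a subunit of the endosomal ESCRT-I complex (0.997), and Bcorl1 (0.984).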

How the data were processed

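The authors prepared SMARTseq2 libraries from 6 to 11 ng of RNA (8 cycles of cDNA and 12 of library PCR), aligned the reads to Rnor6.0 with STAR 2.5.3a and deposited RSEM expected counts per gene on the Rnor6.0.92 annotation (RSEM 1.3.0 per the labels' processing notes), unscaled. Expected counts divide reads among similar genes. The deposited counts were all whole numbers, so rounding changed nothing.

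Groups came from the labels, which put all libraries in the same batch. DESeq2 1.42.0 (R 4.3.3) was fitted to all genes and 6 animals with group as factor, median-of-ratios size factors, Wald tests, independent filtering and Benjamini-Hochberg adjustment over all genes. Ratios were tested per animal with a pseudocount of 1. Alternatives were edgeR 4.0.16, other scalings, filters, thresholds and covariates, thinned libraries, males alone and each animal left out. The fits were tested on simulated data.

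Members and lists were chosen with earlier results of these data known. Named were the 9 members, of each related list the genes called and the 3 with most counts, markers beside a member, and for members averaging at least 100 the 2 most correlated genes. Gene lengths and protein sequences were not used here, so levels were not compared between genes. The values of 1 gene of a related list are not reported here.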

Additional observations from a re-analysis of the deposited data

Results flagged for a closer look

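The response of Cubn and of Trpa1 had opposite signs in the 1 pair of females and in the males. They were flagged because the interaction had no adjusted p and the males of the groups did not overlap. Signs also differed, females then males, for Trpv1 (0.79, −0.78), Piezo1 (−0.42, 0.42), Trpv4 (0.25, −0.03) and Mcoln3 (0.18, −0.10). The interaction of those genes had an adjusted p and was not called. For Cubn the log2 difference of STREP from Control, on the log2(normalised count + 1) scale, was −0.02 in the females and 1.12 in the males, a female minus male difference of −1.14. The female Cubn values, 57.6 in Control and 56.8 in STREP, differed by less than their counting error. For Trpa1 it was 4.13 in the females and −3.77 in the males, a difference of 7.90. Each rests on 1 female per group and on few reads, 25 to 67 raw counts for Cubn and 0 to 74 for Trpa1. DESeq2 gave no adjusted p for the interaction of either gene, and its unadjusted interaction p was 0.458 for Cubn and 0.00352 for Trpa1, so neither difference was tested with adjustment over all genes.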

How the results depend on the processing

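The number of members called, 1 (Lrp2), became 0 with edgeR with or without its count filter, with library totals as size factors and with the 1.5-fold threshold inside the Wald test, and ranged from 0 to 1 when 1 animal was left out, being 0 without Control 1. Over the 15 refits that keep the thresholds, Lrp2 kept its call in 11, with adjusted p from 8.19e-05 to 0.13. With edgeR the adjusted p was 0.13 with the filter and 0.0974 without it. The cause was not tested. Genes called over the whole table, 527, came to 264 with edgeR, 295 with edgeR and no filter, 309 with library totals and 82 with the threshold inside the test, and to 424 to 517 with 1 animal left out. The median log2 fold change was 0.0069, and −0.0067 with library totals. Calls in the related lists, 3, ran from 2 to 5, 5 being without Control 3. The list of other TRP channels had 1 gene called without Control 3 and 1 without STREP 3. The list of endocytic partners had 1 called without STREP 3.

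Trpv4 turned to −0.033 in males alone. With 1 animal left out, values ran from −4.03 to 0.39 for Trpa1, −0.065 to 0.11 for Mcoln3, −0.64 to 0.10 for Trpv1, −0.024 to 0.37 for Piezo1 and −0.10 to 0.20 for Trpv4, none of them called. The log2 ratio of Mcoln3 to Mcoln1 ran from −0.27 to 0.0022, that of Trpv1 to Trpv4 from −0.76 to 0.060, that of Lrp2 to Cubn from −2.19 to −1.10 and that of Piezo2 to Piezo1 from 0.34 to 0.72. Cubn, at 0.57, ran from 0.23 without Control 1 to 1.33 without Control 3, and was 1.16 in males alone. Mcoln1 and Piezo2 stayed above 0 with each animal left out. Trpa1 had no value with the edgeR count filter, which removed it. No paired analysis was possible because the Control and STREP rats were different animals and the labels give no pairs. Depth limits Cubn, Trpa1 and Piezo2, with at most 98 raw counts in any library.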
